A study of Gossypium hirsutum with 2 samples.

Results

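Pectate lyases are secreted enzymes that cut de-esterified homogalacturonan, the acidic backbone of pectin, by beta-elimination in the presence of calcium. They loosen the pectin-rich outer wall and middle lamella of plant cells, are best known from pollen and softening fruit, and in cotton a pectate lyase has been tied to the elongation of the seed hair, or fiber. A fiber is a single cell of the seed coat epidermis that grows to great length after anthesis. The account below concerns 2 unigenes, Unigene0080278 and Unigene0080280, out of 136262 unigenes with reads in at least 1 of 2 cotton libraries. A unigene is an assembled transcript sequence. These 2 were chosen by name because their levels in an earlier reading of the same libraries were far higher in fiber, so their own levels and ratios are a description and support nothing. They were set against the 144 other unigenes whose annotation text contains pectate lyase or pectin lyase.

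Both libraries came from Gossypium hirsutum, or upland cotton, sampled 10 days post anthesis and grown in the same greenhouse conditions per the labels. The first, labelled WT, was fiber of wild type Xuzhou142. The second, labelled FL, was ovule of XZ142FLM with genotype li3li3n2n2, a line whose seeds are hairless (fuzzless-lintless). They are called wild-type fiber and mutant ovule below, and WT fiber and FL ovule on the plots. There was 1 library per group, so no test of the groups was possible, and tissue and genotype differed together and cannot be told apart. The labels do not say how many plants or bolls were pooled. They describe both poly(A)-enriched and ribosomal RNA-depleted preparations of the RNA, and which of them each table holds is not given in the sources used here.

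Levels are given as RPKM, read counts divided by unigene length in kilobases and by the library's total in M reads, and all comparisons between unigenes below are per length in this way. The wild-type fiber library had 45.6 M reads and the mutant ovule library had 53.4 M. A unigene was called measured if it reached 1 RPKM in either library, as 63258 did. A ratio past 2-fold refers to log2((RPKM + 1) in wild-type fiber / (RPKM + 1) in mutant ovule), which understates the change of low unigenes. Folds with an interval are plain RPKM ratios with an exact 95% counting interval from the reads, which covers counting error only and no variation between plants or preparations. Over the 63258 the log2 ratio had a median of -0.39, and under the other scalings tried the median over the unigenes then measured ran from -0.69 (88792 unigenes) to 0.23 (54584 unigenes), so small ratios below depend on scaling.

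The fiber marker Unigene0055966, an alpha expansin, had 6967 RPKM in wild-type fiber and 7.32 RPKM in mutant ovule. The only unigene named protein E6-like, after a fiber protein, Unigene0049100, was low in both, at 2.19 and 2.53 RPKM. As an annotation text list, fiber markers (expansins, fasciclin-like arabinogalactan proteins and protein E6) summed to 10571 RPKM in wild-type fiber and 1623 RPKM in mutant ovule, although 16 of 79 measured members were at least 2-fold higher in wild-type fiber and 33 in mutant ovule, beside 10.5% and 15.3% of all measured unigenes. Of the 103 listed, 7 had no reads in wild-type fiber and 0 had none in mutant ovule. Seed coat markers summed to 127 and 338 RPKM, with 3 of 4 measured members at least 2-fold higher in mutant ovule, and none of the 5 listed was at 0 reads in either library. Dividing cell markers summed to 1335 and 5293 RPKM, with 57 of 95 measured members at least 2-fold higher in mutant ovule and 4 in wild-type fiber. Their 124 listed unigenes include some histone-modifying enzymes by the wording of their texts, and 8 had no reads in wild-type fiber. Embryo and endosperm texts summed to 1117 and 1203 RPKM, vascular texts to 43.7 and 51.5 RPKM, green tissue texts to 1219 and 754 RPKM, and pollen texts to 156 and 74.6 RPKM. At least 2-fold higher in wild-type fiber and mutant ovule were 13 and 22 of 60 measured embryo and endosperm members, and 1 and 4 of 18 vascular ones. For green tissue they were 9 and 16 of 77 and for pollen 2 and 3 of 9, so there the sums and the counts lean opposite ways. All stand beside the same 10.5% and 15.3%. The embryo and endosperm, vascular, green tissue and pollen lists had 8, 2, 5 and 0 unigenes without reads in wild-type fiber, and 1, 0, 4 and 2 in mutant ovule. Single unigenes held much of some sums: Unigene0108071, a photosystem II protein, had 617 and 208 RPKM, and Unigene0054316, with a pollen-specific text, had 132 and 31.5 RPKM. The embryo and endosperm list includes Unigene0047294, at 39.3 and 235 RPKM, whose text also names lipid-transfer proteins. The part of these cell types in the lyase levels was not tested, and in such bulk RNA fewer cells of a type and less RNA per cell cannot be told apart.

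Unigene0080278 had 22646 reads in wild-type fiber and 104 reads in mutant ovule on a length of 912 bases. That is 544 RPKM in wild-type fiber and 2.14 RPKM in mutant ovule, a 255-fold difference (95% counting interval 210 to 312). Unigene0080280 had 24807 reads in wild-type fiber and 152 reads in mutant ovule on 685 bases. Its levels were 794 RPKM and 4.16 RPKM, a 191-fold difference (163 to 226). Both were abundant in the fiber library and low, but above the 3 reads that a count of 0 allows, in the ovule library.

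In wild-type fiber Unigene0080280 was 91st and Unigene0080278 was 140th of the 63258 measured unigenes by RPKM. In mutant ovule they were 18593rd and 29848th. The log2 ratios, the values that chose them, were 7.27 and 7.44, which placed them 24th and 20th of all measured unigenes. Both were thus past 2-fold and 16-fold towards wild-type fiber, where 10.5% and 0.425% of all measured unigenes lay, and since this ratio chose them nothing is read from that. Reads were spread along both: the deposited coverage column gives 99.89% of Unigene0080278 and 99.85% of Unigene0080280 in wild-type fiber, and 88.71% and 97.23% in mutant ovule. The definition of that column is not given, and a few unigenes exceed 100%.

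The members also differed from each other. Per length, Unigene0080280 was 1.46-fold above Unigene0080278 in wild-type fiber (95% counting interval 1.43 to 1.49) and 1.95-fold above it in mutant ovule (1.51 to 2.52). Equivalently, the fold of Unigene0080278 between the libraries was 1.33 times that of Unigene0080280 (1.03 to 1.73), an interval that lies just above 1 and covers counting error only.

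Both members carried the annotation text pectate lyase, with the closest sequence from Gossypium hirsutum subsp. latifolium, a source no other lyase unigene had. The same name, with Gossypium hirsutum or Gossypium laxum as source, was also carried by Unigene0137363, Unigene0091132 and Unigene0091134. Both members were assigned to the pathway of pentose and glucuronate interconversions. Their identifier numbers enclose Unigene0080279, which is annotated as a pectate lyase family protein from cacao and belongs to the same pathway. This unigene of 660 bases had 4410 reads and 146 RPKM in wild-type fiber against 104 reads and 2.95 RPKM in mutant ovule, a 49.6-fold difference (95% counting interval 40.9 to 60.9). It ranked 674th of all measured unigenes in wild-type fiber and 106th by log2 ratio.

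The 3 unigenes together held 51863 reads in wild-type fiber and 360 reads in mutant ovule, a 169-fold difference (152 to 188), on a summed length of 2257 bases. Whether they are pieces of 1 transcript, variants of 1 gene or copies from the 2 subgenomes was not tested. The deposited counts are unique reads, so reads shared by near-identical sequences could be divided or lost, and the value of each single unigene is uncertain in that respect. The neighbours by number were unlike them. Unigene0080275, Unigene0080276 and Unigene0080277, whose texts name tRNA-modifying enzymes, had 0.0629 to 0.335 RPKM over both libraries. Unigene0080281 and Unigene0080282, with an uncharacterized text, had 0.874 and 4.89 RPKM in wild-type fiber and 3.26 and 9.40 RPKM in mutant ovule. The unannotated Unigene0080283 stayed below 1 RPKM in both.

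**Figure D1:**
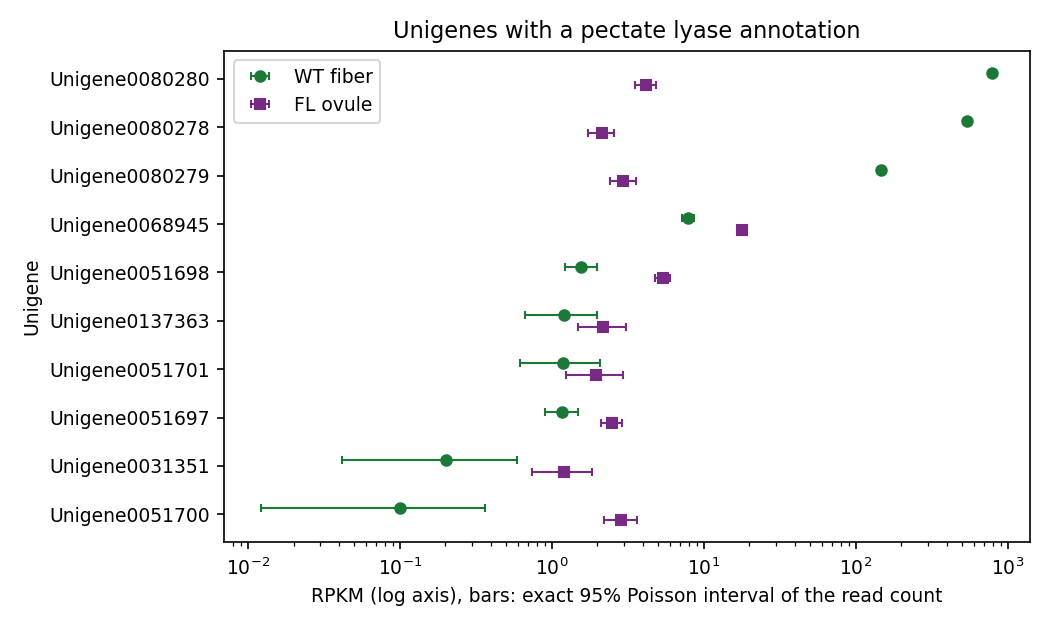
RPKM on a log axis for the 10 measured unigenes with a pectate lyase annotation in WT fiber (circles) and FL ovule (squares), 1 library each, with exact 95% Poisson intervals of the read counts as bars. Unigene0080280, Unigene0080278 and Unigene0080279 reach 794, 544 and 146 RPKM in WT fiber and stay at 4.16 RPKM or less in FL ovule, while the other 7 are lower in WT fiber than in FL ovule.

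Texts that name a pectate lyase were carried by 18 unigenes, of which 10 were measured. Besides the members and Unigene0080279, the one with most reads was Unigene0068945, a probable pectate lyase 4 of 1540 bases, with 555 reads and 7.90 RPKM in wild-type fiber and 1481 reads and 18.02 RPKM in mutant ovule. It was 2.28-fold higher in mutant ovule (95% counting interval 2.07 to 2.52). Unigene0051698, a pectate lyase family protein, had 1.56 RPKM in wild-type fiber and 5.38 RPKM in mutant ovule, 3.44-fold higher in the latter (2.64 to 4.55). Unigene0051700, with the same text, had 2 reads in wild-type fiber and 66 reads in mutant ovule, a ratio of 28.2 towards mutant ovule with a counting interval of 7.503 to 238.

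The remaining measured ones did not pass 2-fold on the scale with the pseudocount. Unigene0051697 and Unigene0051701, again pectate lyase family proteins, had 1.17 and 1.20 RPKM in wild-type fiber and 2.48 and 1.96 RPKM in mutant ovule. Unigene0137363, named a pectate lyase of Gossypium hirsutum, had 15 and 32 reads in the respective libraries, or 1.20 and 2.19 RPKM. Unigene0031351, a probable pectate lyase 8, had 3 and 21 reads. So the members, which this ratio chose, and Unigene0080279 stood on one side of the ratio and the other 7 measured pectate lyase unigenes on the other. The side of the 7 is also that of most measured unigenes, whose median log2 ratio was -0.39. With a common RPKM sum Unigene0051701, Unigene0051697 and Unigene0068945 were at -0.05, -0.28 and -0.52. Without the 30 most-read unigenes in the totals they were at -0.73, -1.02 and -1.46. For 2 of these 7, Unigene0137363 and Unigene0051701, the counting interval of the RPKM ratio included 1.

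The other 8 pectate lyase unigenes were below 1 RPKM in both libraries. Unigene0116230, a P59-like pectate lyase whose closest sequence is from tomato, had 13 reads in wild-type fiber and 3 in mutant ovule. Unigene0017571, a probable pectate lyase 8, had 0 reads in wild-type fiber and 7 in mutant ovule. With the 3 reads that a count of 0 allows put in its place, the ratio was 1.99 towards mutant ovule. The exact counting interval, which also covers the error of the 7 reads, starts lower, at 1.23. Unigene0005240, a probable pectate lyase 8, had 5 and 20 reads, and the remaining 5 had at most 8 reads in either library.

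Without the members, the pectate lyase texts summed to 162 RPKM in wild-type fiber and 39.7 RPKM in mutant ovule. Unigene0080279 alone made up 146 of the 162 RPKM. With the members the sums were 1501 and 46.0 RPKM, and the members held 90.2% of the reads on pectate lyase texts in wild-type fiber and 10.4% in mutant ovule.

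**Figure D2:**
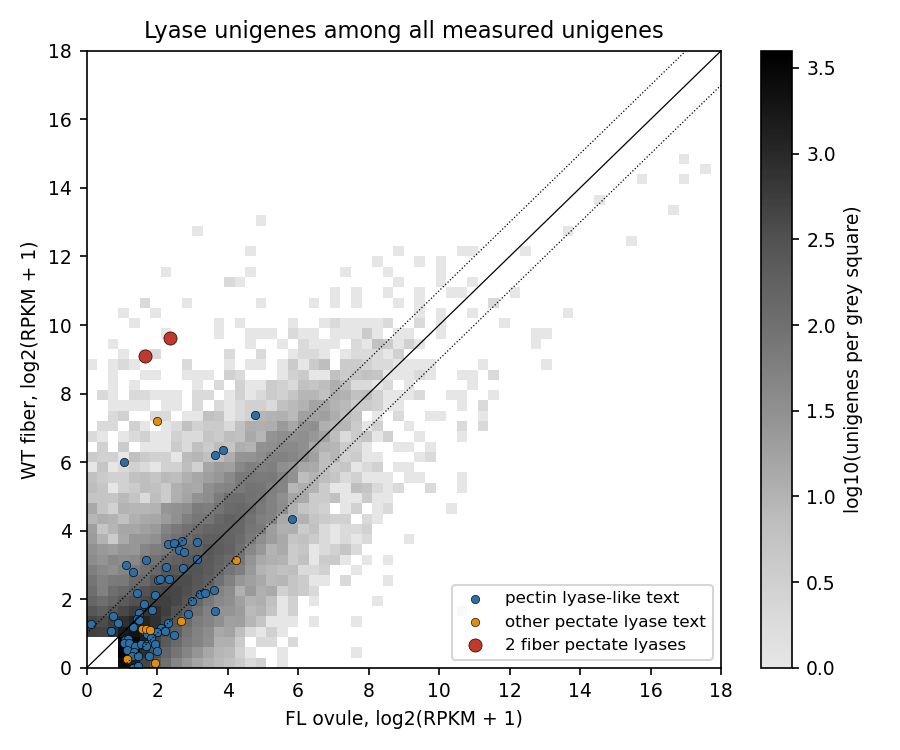
Level in WT fiber against level in FL ovule, both as log2(RPKM + 1), for the 63258 measured unigenes (grey squares, darker with more unigenes) and the 75 measured lyase unigenes (points). The solid line marks equal levels and the dotted lines a 2-fold difference. The 2 fiber pectate lyases lie at log2 ratios of 7.27 and 7.44, above the other lyase points.

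The other 128 unigenes of the family search carried the text pectin lyase-like superfamily protein. That text names a fold, the right-handed parallel beta-helix, which pectate lyases share with polygalacturonases and other wall enzymes, so it does not say that a unigene is a pectate or pectin lyase. Over both kinds of text 146 unigenes were found and 75 were measured. The members aside, 11 of 73 measured lyase unigenes (15.1%) were at least 2-fold higher in wild-type fiber, against 10.5% of all measured unigenes, and 20 (27.4%) were at least 2-fold higher in mutant ovule, against 15.3% of all measured unigenes. Scaling moved these counts, the number measured and the shares over all unigenes together. With both libraries set to one RPKM sum they were 19 and 7 of 69, beside 21.0% and 7.25% of all unigenes then measured. With the 30 most-read unigenes of each library left out of its total they were 10 and 33 of 92, beside 6.34% and 28.4%. The median log2 ratio of the 73 was -0.47, near the -0.39 of all measured unigenes. At least 16-fold higher in wild-type fiber were 2 of the 73, Unigene0080279 and Unigene0011800, against 0.425% of all measured unigenes, and in mutant ovule 0, against 0.114%.

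Of the 11 on the wild-type fiber side, the largest plain ratio among pectin lyase-like texts was that of Unigene0011800, a unigene of 473 bases with 62.7 RPKM in wild-type fiber and 1.07 RPKM in mutant ovule. It was 58.6-fold higher in wild-type fiber (95% counting interval 40.1 to 89.3). The most abundant pectin lyase-like unigenes on this side were 3 long ones with near-equal folds. Unigene0079420 had 167 RPKM in wild-type fiber and 26.3 RPKM in mutant ovule, a 6.34-fold difference (6.10 to 6.58). Unigene0074567 had 81.4 and 13.6 RPKM, a 5.97-fold difference (5.69 to 6.26), and Unigene0141958 had 72.7 and 11.6 RPKM, a 6.27-fold difference (5.95 to 6.60). In mutant ovule all 3 were at 11.6 RPKM or more, while the members were at 2.14 and 4.16 RPKM there. Reads covered only part of each: in wild-type fiber the coverage column gives 83.04% for Unigene0079420, 34.4% for Unigene0074567 and 67.86% for Unigene0141958.

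A further 6 pectin lyase-like unigenes passed 2-fold towards wild-type fiber at low levels. Unigene0084448, Unigene0066663, Unigene0084450, Unigene0055790 and Unigene0087542 had 5.97 to 11.4 RPKM in wild-type fiber and 1.18 to 4.56 RPKM in mutant ovule. Unigene0074568 had 172 reads in wild-type fiber and 12 in mutant ovule, a 16.8-fold difference (95% counting interval 9.36 to 33.1) at 1.44 RPKM.

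On the mutant ovule side the most abundant was Unigene0078798, a pectin lyase-like protein with 19.3 RPKM in wild-type fiber and 56.0 RPKM in mutant ovule. It was 2.90-fold higher in mutant ovule (95% counting interval 2.76 to 3.06). Unigene0079421 carried the same text as its neighbour by number, Unigene0079420, but went the other way, with 2.13 RPKM in wild-type fiber and 11.6 RPKM in mutant ovule, a 5.43-fold difference (4.62 to 6.41). Among the other 15 pectin lyase-like unigenes on this side, Unigene0015811 had 2 reads in wild-type fiber and 110 in mutant ovule, a ratio of 47.0 (12.7 to 393). Unigene0027086 had 0 reads and 21 reads, a ratio of 5.98 towards mutant ovule with 3 reads in place of 0, while the exact counting interval, which also covers the error of the 21 reads, starts lower, at 4.45.

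The remaining 13 pectin lyase-like unigenes past 2-fold towards mutant ovule were Unigene0090741, Unigene0084442, Unigene0090742, Unigene0057981, Unigene0090737, Unigene0059426, Unigene0061464, Unigene0059425, Unigene0072345, Unigene0061477, Unigene0057982, Unigene0090740 and Unigene0059427. None of them was above 11.2 RPKM in mutant ovule or above 3.84 RPKM in wild-type fiber. The other 42 measured lyase unigenes had log2 ratios from -0.99 to 0.998, with 25 below 0 and 17 above. The 71 unmeasured lyase unigenes had at most 87 reads in wild-type fiber and 146 in mutant ovule, and 9 had no reads in wild-type fiber and 2 none in mutant ovule. The 42 did not exceed 11.95 RPKM in wild-type fiber or 7.75 RPKM in mutant ovule.

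**Figure D3:**
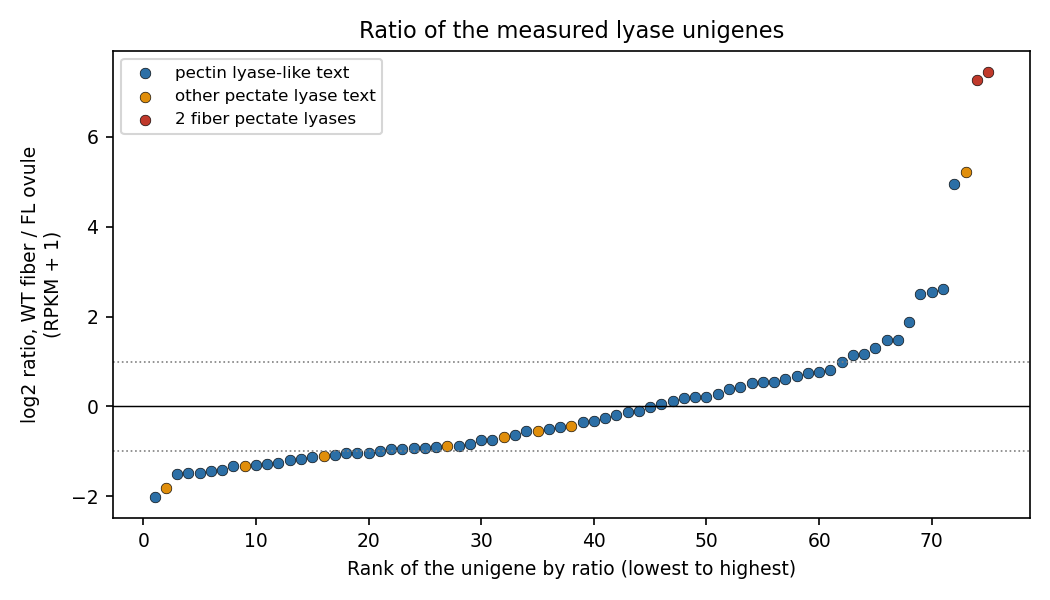
Log2 ratio of WT fiber over FL ovule, from RPKM + 1, for the 75 measured lyase unigenes in order of their ratio, with dotted lines at 2-fold in each direction and 1 library per group. The points run from -2.01 to 7.44, the 2 fiber pectate lyases are the last in the order, and 42 points lie between the dotted lines.

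The order of levels within the search differed between the libraries. In wild-type fiber it began with Unigene0080280 and Unigene0080278, followed by Unigene0079420 at 3.27-fold less than Unigene0080278 (95% counting interval 3.20 to 3.33), then Unigene0080279, Unigene0074567, Unigene0141958 and Unigene0011800. Each of these differed from the next beyond counting error, while Unigene0080449 and Unigene0074178, ranks 9 and 10, did not, at 11.95 and 11.7 RPKM. In mutant ovule the order began with Unigene0078798, Unigene0079420, Unigene0068945, Unigene0074567 and Unigene0141958. The last of these could not be told from Unigene0079421 within counting error. Unigene0080280 was 21st and Unigene0080278 was 46th of the 75 measured lyase unigenes there.

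Summed over all 146 unigenes, lyase levels were 2102 RPKM in wild-type fiber and 376 RPKM in mutant ovule, a 5.596-fold difference. Without the members the sums were 764 and 369 RPKM, 2.07-fold higher in wild-type fiber at the deposited scaling. A few unigenes weigh heavily in this: of the 764 RPKM, Unigene0079420 made up 167 and Unigene0080279 made up 146. By count, 11 of the 73 measured were at least 2-fold higher in wild-type fiber and 20 in mutant ovule. The members held 46.6% of the lyase reads in wild-type fiber (exact 95% binomial interval 46.2 to 46.9) and 0.908% in mutant ovule (0.800 to 1.03). By RPKM, which gives short unigenes more weight, their shares were 63.7% and 1.68%. The pectin lyase-like texts summed to 601 and 330 RPKM.

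**Figure D4:**
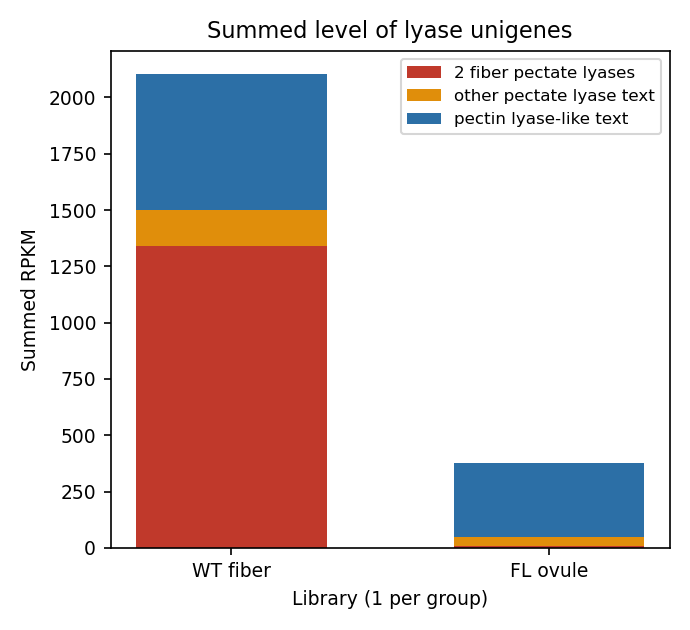
Summed RPKM of the 146 lyase unigenes in each library, stacked by kind of annotation text, 1 library per bar and no error. The 2 fiber pectate lyases make up 1338 of 2102 RPKM in WT fiber and 6.29 of 376 RPKM in FL ovule, where pectin lyase-like texts hold 330 RPKM.

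Pectin is made in the Golgi from nucleotide sugars, exported in a methyl-esterified form, de-esterified in the wall by pectin methylesterases, and then open to cutting by pectate lyases and polygalacturonases. The other genes of this pathway were grouped by annotation text into 8 lists that share no unigene with the lyase search. Together they held 281 unigenes, of which 168 were measured. Of these, 27 (16.1%) were at least 2-fold higher in wild-type fiber and 37 (22.0%) in mutant ovule, beside 10.5% and 15.3% of all measured unigenes. With both libraries set to one RPKM sum the counts were 47 and 21 of 151, beside 21.0% and 7.25% of all unigenes then measured. Leaving the 30 most-read unigenes out of the totals made them 20 and 61 of 200, beside 6.34% and 28.4%. The median log2 ratio of the 168 was -0.17. The single lists are given next at the deposited scaling, and a count is followed by its value under another scaling where the side with more unigenes changes. The number measured changes with the scaling too. So do the shares over all measured unigenes just given, which lean to mutant ovule as deposited and to wild-type fiber with a common RPKM sum. A change of side is therefore not read as a trait of a list.

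Of the precursor enzymes, the UDP-glucuronate 4-epimerases, which make the galacturonic acid donor, were at least 2-fold higher in wild-type fiber in 2 of 14 cases (14.3%) and in mutant ovule in 0. The shares over all measured unigenes were 10.5% and 15.3%. The most abundant in wild-type fiber, Unigene0074108, had 161 RPKM there and 44.2 RPKM in mutant ovule, 3.65-fold higher in wild-type fiber (95% counting interval 3.53 to 3.77). Unigene0069913, the most abundant in mutant ovule, had 60.1 and 66.9 RPKM. Among 11 measured UDP-rhamnose synthases, which supply rhamnose for the branched backbone of rhamnogalacturonan, 1 was higher in each direction (9.09% each). Without the 30 most-read unigenes in the totals they were 1 and 5, beside 6.34% and 28.4% of all. With a common RPKM sum they were 2 and 0, beside 21.0% and 7.25%. Unigene0059976 had 555 RPKM in wild-type fiber and 81.8 RPKM in mutant ovule, a 6.78-fold difference (6.60 to 6.97), and was the most abundant of them in both libraries.

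Galacturonosyltransferases, the enzymes that extend the homogalacturonan chain, lay between the 2-fold lines in 43 of 52 cases. Higher in wild-type fiber were 6 (11.5%) and in mutant ovule 3 (5.77%), beside 10.5% and 15.3% of all measured unigenes. Without the 30 most-read unigenes in the totals they were 4 and 6, beside 6.34% and 28.4%. The most abundant in both libraries was Unigene0135225, annotated as galacturonosyltransferase 4, with 287 RPKM in wild-type fiber and 602 RPKM in mutant ovule. It was 2.10-fold higher in mutant ovule (95% counting interval 2.08 to 2.12), and its log2 ratio of -1.07 became -0.44 with a common RPKM sum and -0.95 with upper quartile scaling, both short of 2-fold.

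Pectin methylesterases, which strip the methyl groups and so prepare the substrate of pectate lyases, were higher in wild-type fiber in 3 of 18 cases (16.7%) and in mutant ovule in 6 (33.3%). The shares over all measured unigenes were 10.5% and 15.3%. With a common RPKM sum the counts were 4 and 4, beside 21.0% and 7.25% of all. The most abundant in wild-type fiber, pectin methylesterase 5 (Unigene0066288), had 22249 reads and 266 RPKM in wild-type fiber and 183 reads and 1.87 RPKM in mutant ovule. Its 142-fold difference (95% counting interval 123 to 165) was of the same order as those of the members. Unigene0063527, a pectin methylesterase 31, led the list in mutant ovule with 52.9 RPKM against 63.0 RPKM in wild-type fiber. Texts naming pectin methylesterase inhibitors were higher in wild-type fiber in 8 of 34 cases (23.5%) and in mutant ovule in 14 (41.2%), against 10 and 8 with a common RPKM sum, beside the same shares. Most of these texts name a superfamily that also holds invertase inhibitors. Unigene0053201 had 691 RPKM in wild-type fiber and 334 RPKM in mutant ovule. Unigene0033153 had 12.4 and 573 RPKM, 46.3-fold higher in mutant ovule (42.5 to 50.6).

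Polygalacturonases, which cut the same backbone by hydrolysis, were higher in wild-type fiber in 1 of 16 cases (6.25%) and in mutant ovule in 6 (37.5%). The shares over all measured unigenes were 10.5% and 15.3%. The 1 case was Unigene0070177, whose text names a non-catalytic polygalacturonase subunit, with 244 RPKM in wild-type fiber and 5.17 RPKM in mutant ovule, a 47.3-fold difference (95% counting interval 43.6 to 51.3). In mutant ovule the most abundant was Unigene0106211, with 17.5 RPKM in wild-type fiber and 75.03 RPKM in mutant ovule. Rhamnogalacturonan lyases were higher in wild-type fiber in 4 of 15 cases (26.7%) and in mutant ovule in 2 (13.3%). Without the 30 most-read unigenes in the totals they were 4 and 6, beside 6.34% and 28.4% of all. Unigene0081764 had 18.3 and 0.566 RPKM, a 32.3-fold difference (18.2 to 63.1) on 12 reads in mutant ovule, and Unigene0033790 had 0.507 and 5.81 RPKM. Pectin acetylesterases, which remove acetyl groups, were higher in wild-type fiber in 2 of 8 cases (25%) and in mutant ovule in 5 (62.5%). With a common RPKM sum they were 2 and 2, beside 21.0% and 7.25% of all. Unigene0074856 had 40.3 and 19.6 RPKM, and Unigene0056854 had 21.4 and 70.1 RPKM.

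**Figure D5:**
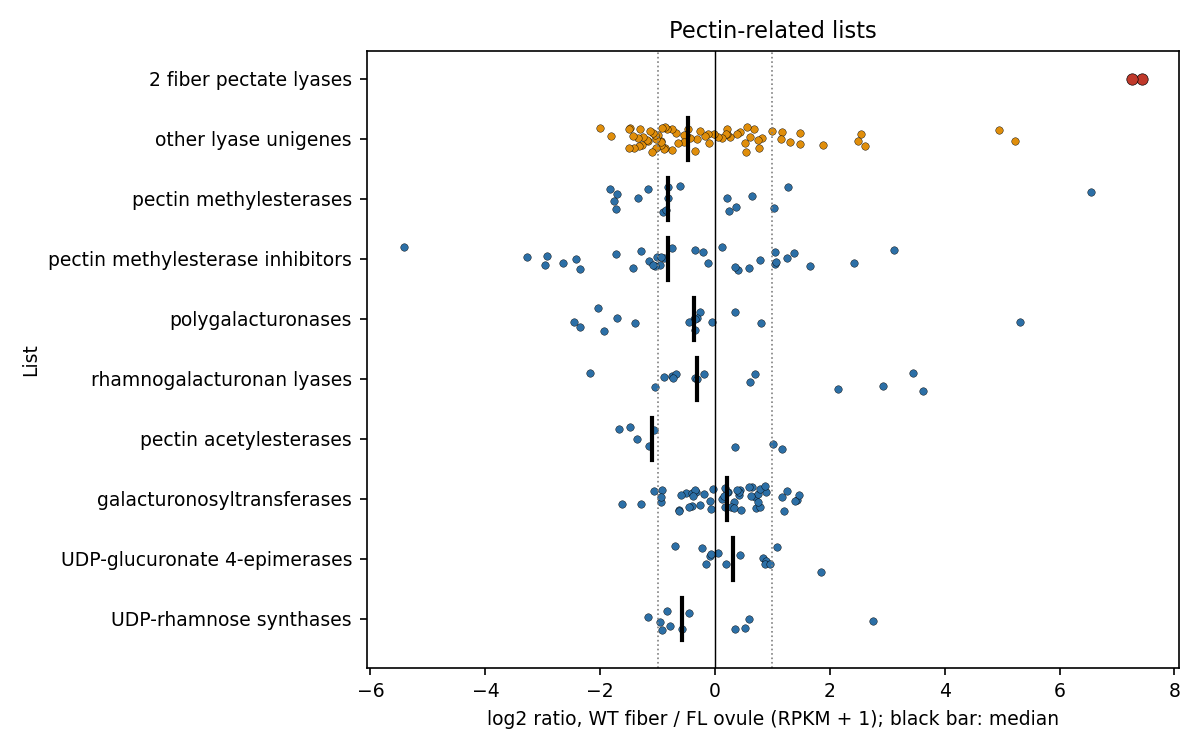
Log2 ratio of WT fiber over FL ovule, from RPKM + 1, for each measured unigene of the 8 pectin lists, of the other lyase unigenes and of the 2 fiber pectate lyases, with the median of each list as a black bar, dotted lines at 2-fold and 1 library per group; vertical scatter within a list has no meaning. List medians lie between -1.11 and 0.31, and pectin methylesterase 5 at 6.54 is the list member nearest to the 2 fiber pectate lyases.

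The annotated unigenes most like the members were found by the distance between their levels on the log2(RPKM + 1) scale over the 2 libraries, and 2 libraries allow many unigenes to look alike. Nearest to Unigene0080278 was Unigene0063492, annotated as FbLate-2 of Gossypium barbadense, with 458 RPKM in wild-type fiber and 1.81 RPKM in mutant ovule at a distance of 0.30. It was followed by the beta-tubulins Unigene0066683 and Unigene0066687, subunits of microtubules, at distances of 0.39 and 0.42. Next were the xyloglucan endotransglycosylase Unigene0120055, of a class that cuts and rejoins wall xyloglucan, at 0.57, and the profilin Unigene0037908, an actin-binding protein, at 0.65. For Unigene0080280 the nearest were the same beta-tubulins, Unigene0066687 at 0.49 and Unigene0066683 at 0.58, then an auxin binding protein, Unigene0125523, at 0.79. Unigene0080278 itself came next at 0.90, and last fatty acid desaturase 8, Unigene0130890, an enzyme that adds double bonds to fatty acids, at 0.92.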

How the data were processed

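Each library has 1 deposited table of unigenes. Its counts, per the file headers, are uniquely assigned reads of a unigene, and they add up to the total in the header. The RPKM values deposited beside them follow from count, unigene length and that total, since recomputing them gave each one to a relative error of at most 2.4e-14. A coverage column, another deposited value, was used only to describe. Bowtie and Bowtie2 are named in the submitters' processing notes without role. For assembler, annotation database and strand setting the sources used here give nothing. The tables were joined on the unigene identifier, with absent taken as 0 reads. None (0) of 136262 identifiers matched the reference gene table, so positions and sequences are not given.

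Gene lists were patterns on annotation text. The members, lists and rules were chosen with earlier results of these data known. Named unigenes were the members, measured lyase unigenes (those between the 2-fold lines mostly as ranges), the most abundant unigene of each pectin list in each library, the 5 annotated unigenes nearest to each member, and those within 3 identifier numbers. Unmeasured pectate lyase unigenes and single marker unigenes were named outside this rule, after their values were seen. Intervals are exact (Clopper-Pearson or Poisson, 95%), and reads without molecular identifiers make them too narrow. The calculations were run on simulated counts first, with Python 3.11.15 and scipy 1.17.1. Alternatives changed the pseudocount, filter, fold threshold, scaling and text.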

Additional observations from a re-analysis of the deposited data

How the results depend on the processing

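Both members stayed past 2-fold towards wild-type fiber under every pseudocount and scaling tried. They were chosen for ratios far past 2-fold, so this outcome was fixed by the choice and supports nothing. On the log2 scale Unigene0080278 was 7.93 and 6.27 with pseudocounts of 0.1 and 5 and 7.92 with a common RPKM sum; Unigene0080280 was 7.54, 6.45 and 7.80, and 7.02 with the 30 most-read unigenes of each library left out of the totals. Counts past 2-fold are given towards wild-type fiber and mutant ovule in turn, followed by the share of all unigenes measured at that setting. For all lyase unigenes they were 13 and 20 of 75 as reported, and for the pectin lists 27 and 37 of 168 (10.5% and 15.3% of all). With a pseudocount of 5 they were 7 and 2 of 75, and 9 and 17 of 168 (4.57% and 2.90%). With a common RPKM sum they were 21 and 7 of 71, and 47 and 21 of 151 (21.0% and 7.25%). At 4-fold they were 7 and 1 of 75, and 9 and 11 of 168 (2.80% and 2.19%). With 1 unigene per annotation text they were 4 and 3 of 12, and 15 and 14 of 68 (15.7% and 16.4%). With a pseudocount of 0.1 they were 16 and 33 of 75, and 38 and 58 of 168 (14.5% and 36.6%). With the 30 most-read unigenes left out of the totals they were 12 and 33 of 94, and 20 and 61 of 200 (6.34% and 28.4%). At 5 RPKM or more they were 12 and 9 of 30, and 22 and 27 of 87 (22.03% and 18.1%). For pectate lyase texts only, at the settings as reported, they were 3 and 3 of 10 (10.5% and 15.3%). All these lyase counts include members, which this ratio chose. Without the members they were 11 and 20 of 73 for all lyase unigenes as reported, and 1 and 3 of 8 for pectate lyase texts. The ratio of summed lyase RPKM, 5.596, was 8.64 with a common sum, 6.10 with upper quartile scaling, 5.07 with median ratio scaling, 4.36 without the 30 most-read unigenes in the totals, 32.6 for pectate lyase texts only and, in a set chosen after seeing the data, 2.07 without the members. The members' share of lyase reads, 46.6% and 0.908%, was 90.2% and 10.4% of pectate lyase texts and 63.7% and 1.68% by RPKM. The cause of these shifts was not tested beyond what each setting changes by its construction. Of 50 other named unigenes past 2-fold, 24 to 50 stayed past 2-fold, the fewest with a pseudocount of 5. None (0) changed sign, and none could have. A pseudocount cannot change a sign, and each scaling shifted ratios by less than the 2-fold from which these started. No paired analysis was possible because each group has 1 library. No library could be left out for the same reason.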

Other observations

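All 18 unigenes with a pectate lyase text and 48 of the 146 lyase unigenes were assigned to the pathway of pentose and glucuronate interconversions, a list taken up after the values were seen. Of its 86 measured unigenes, wild-type fiber was at least 2-fold higher for 30 (34.9%) and mutant ovule for 19 (22.1%), beside 10.5% and 15.3% of all measured unigenes. With a common RPKM sum these were 37 and 6 of 83, beside 21.0% and 7.25%, and with the 30 most-read unigenes left out of the totals 25 and 33 of 105, beside 6.34% and 28.4%. The pathway includes the members, chosen for their ratio, and pectin methylesterase 5. It shares unigenes with the sets counted above, so its counts are not separate from theirs. In 2 pairs of lyase unigenes with nearby identifiers the directions were opposite: Unigene0079420 was 6.34-fold higher in wild-type fiber and Unigene0079421 5.43-fold higher in mutant ovule, and Unigene0084448 was 5.99-fold higher in wild-type fiber and Unigene0084442 7.10-fold higher in mutant ovule. These pairs were picked after their values were seen, and other runs went one way, such as Unigene0059425, Unigene0059426 and Unigene0059427, all higher in mutant ovule.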
